A study of Homo sapiens with 3 samples.

Results

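The comparison set the library of HEK293T cells given hairpin shDDX24-2 against the library given hairpin shDDX24-1, here called hairpin 2 and hairpin 1. Its members were the gene models placed on a chromosome that reached at least 5 CPM, the usual unit of counts scaled to the library total, in at least 1 of the 3 libraries, which kept 10971 of the 67008 models in the table. HEK293T cells derive from human embryonic kidney and express large T antigen of SV40. All 3 cultures were infected with lentivirus at a multiplicity of 5 in the presence of 8 µg/mL polybrene and harvested after 72 hours. The third library, from cells infected with the pLKO.1 vector, served here to show which hairpin departed from it. Poly(A)-selected RNA was read as 100 bp paired ends. Each condition had 1 library, and whether the cultures were separate is not stated, so all differences below are ratios with 95% exact intervals that cover counting error only, with no replicate check.

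DDX24 is a DEAD-box RNA helicase, a family of proteins that use ATP to remodel RNA and RNA-protein complexes. A short hairpin RNA is cut by Dicer into a duplex, and 1 strand of it guides an Argonaute protein to matching transcripts. A guide that pairs along its whole length leads to cleavage of its target, whereas pairing of the bases near its 5′ end, the seed, is enough to lower many other transcripts, as microRNAs do. Use of more than 1 hairpin per target is the usual way to tell these kinds of effect apart.

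Total counts were 36738685 with hairpin 1, 37828270 with hairpin 2 and 52198744 with the vector. Mitochondrial transcripts took 4.21%, 3.8% and 3.51% of them in that order. Of 12 genes known to be expressed in HEK293T cells, 11 were at 1 CPM or more in both hairpin libraries. Markers of other cell types were low or absent, and the highest summed level was that of 7 fibroblast genes, at 47.7 CPM with hairpin 1, 36.6 with hairpin 2 and 39.8 with the vector. DDX24 itself lies on the minus strand of GRCh38 chromosome 14 at 94048287 to 94081212 (ENSG00000089737.17). Its counts were 0 throughout, also for a second model on an alternate scaffold. The knockdown by either hairpin was therefore not measured, and the target gives no check of the labels. HMOX1, heme oxygenase 1, the heme-degrading enzyme whose control the series addresses, did not separate the hairpins. It had 1820 counts with hairpin 1 and 1856 with hairpin 2, against 4820 with the vector, and the log2 ratio of hairpin 2 to hairpin 1 was 0.00 (interval -0.09 to 0.09).

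Differences between the hairpins ran mostly one way. Of all genes kept, 53 were at least 2-fold apart (0.483%). Of these, 49 were at least 2-fold higher with hairpin 1, which is 0.447% of the genes kept, whereas in 4 the value of hairpin 2 was the higher one (0.0365%). At 1.5-fold, 378 genes were apart (3.45%), of which 328 (2.99%) and 50 (0.456%) were higher with hairpins 1 and 2. Genes whose counting interval lay wholly past 1.5-fold numbered 138 (1.26%) and 16 (0.146%). The median log2 ratio over all genes was 0.00, while the lowest 1% of genes lay at or below -0.81 and the highest 1% at or above 0.49. Its SD over genes was 0.25, against a root mean square counting error of 0.07. In the following, a negative log2 ratio means lower with hairpin 2 than with hairpin 1.

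**Figure D1:**
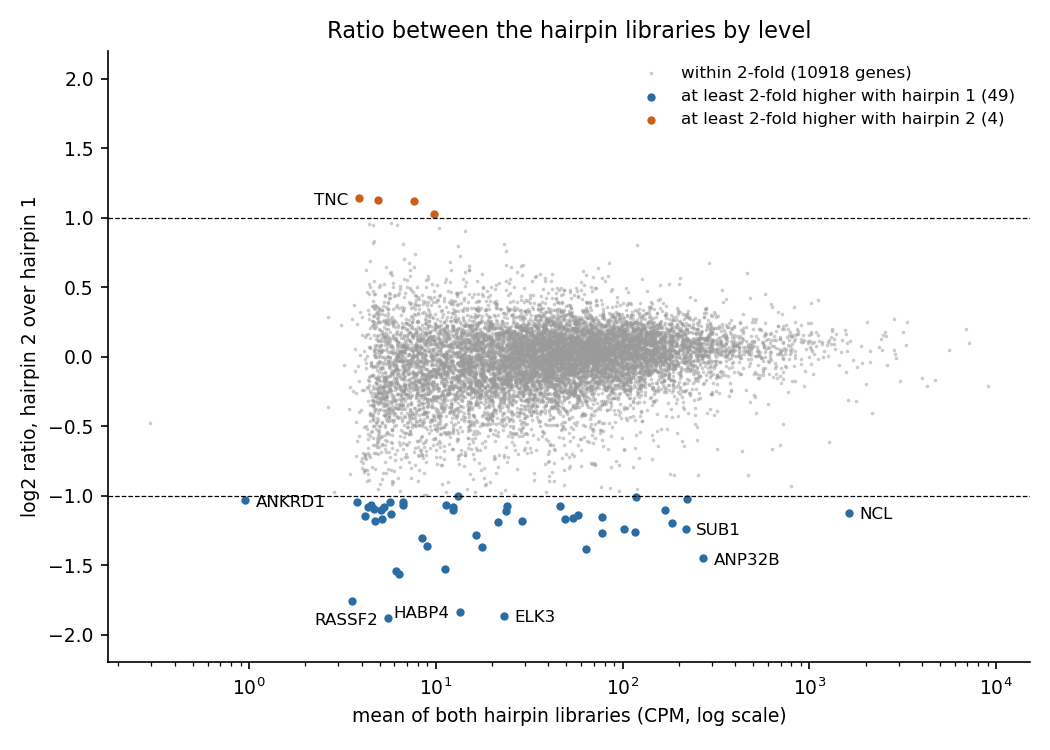
Log2 ratio of hairpin 2 to hairpin 1 (vertical axis) against the mean level of both hairpin libraries in CPM (horizontal log axis), 1 point per gene. The 49 blue genes below the lower dashed line span levels from 0.957 to 1635 CPM, while the 4 orange genes above the upper line all lie under 10 CPM.

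The excess in favour of hairpin 1 was found at all levels of expression, but the ratio shifted with the level. Of the 49 genes, 20 had a mean under 10 CPM (40.8%, against 14.4% of all genes kept), and their median was 13.2 CPM against 41.3 CPM overall. The median log2 ratio of all genes under 10 CPM was -0.12, and it was 0.07 among genes at 300 CPM or more. Of the 4 genes higher with hairpin 2, all had a mean under 10 CPM. The counts by GC content showed no such order, with 12 of the 49 genes below 40% GC and 6 at 60% or more. They were spread over the chromosomes, with no more than 6 on any.

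Set against the vector, the 49 genes divided unevenly. Hairpin 2 was below the vector for all 49, with a median log2 ratio of -1.09 (range -2.95 to -0.36). Hairpin 1 was above the vector for 37 and below it for 12, with a median of 0.19 (range -1.91 to 1.16). Taking 1.5-fold as a departure, 40 of the 49 departed with hairpin 2 only, 7 with hairpin 1 only, 1 with both and 1 with neither. Over all genes kept, 285 (2.6%) were at least 1.5-fold below the vector with hairpin 2 and 59 (0.538%) with hairpin 1, while 55 (0.501%) and 68 (0.62%) were above it. The vector library is shared by both ratios, so they are not independent of each other.

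**Figure D2:**
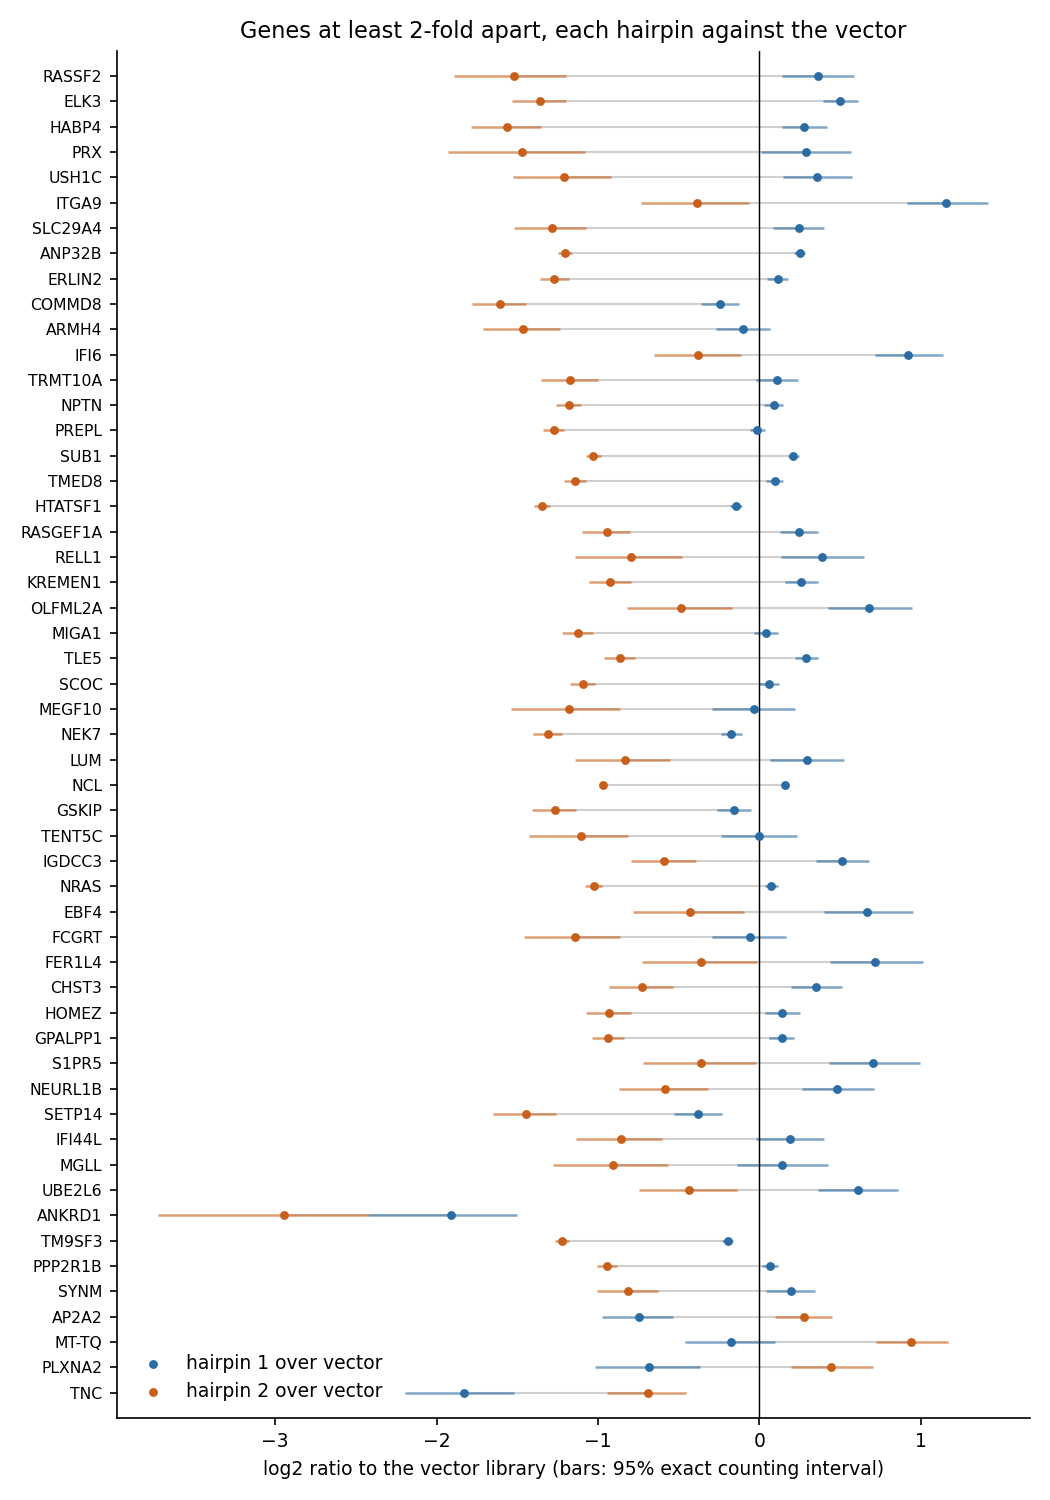
Log2 ratio to the vector library (horizontal axis) of hairpin 1 (blue) and hairpin 2 (orange) for the 53 genes at least 2-fold apart, with 95% exact counting intervals as bars. For most genes the blue point lies near 0 and the orange point near -1, and only the lowest 4 genes have the orange point to the right of the blue one.

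ELK3, an ETS-family transcription factor that answers to Ras signalling, was at 36.4 CPM with hairpin 1, 9.89 with hairpin 2 and 25.8 with the vector, a log2 ratio between the hairpins of -1.86 (interval -2.04 to -1.70). RASSF2, a Ras-association protein that binds the Hippo kinases, was at 8.79, 2.33 and 6.86 CPM in the same order, with a log2 ratio of -1.88 (-2.26 to -1.56). HABP4, a hyaluronan and RNA-binding protein, was at 21.1, 5.82 and 17.5 CPM and had a log2 ratio of -1.84 (-2.07 to -1.63). For all of these the vector lay between the hairpins and nearer to hairpin 1.

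Other genes at low level followed. PRX, which encodes periaxin, a protein of myelinating Schwann cells, had 203 counts with hairpin 1 and 60 with hairpin 2, a log2 ratio of -1.76 (-2.23 to -1.36). USH1C, the scaffold protein harmonin, had 352 and 120 counts (log2 ratio -1.57, -1.89 to -1.28), and SLC29A4, a monoamine transporter, 615 and 216 (-1.53, -1.77 to -1.31). ITGA9, an integrin alpha subunit, differed in kind from these. It was at 9.20 CPM with hairpin 1, 3.09 with hairpin 2 and 4.12 with the vector, so that the log2 ratio between the hairpins of -1.54 (-1.87 to -1.25) came mainly from a value of 1.16 for hairpin 1 over the vector. IFI6, an interferon-induced mitochondrial protein, stood likewise at 12.0, 4.78 and 6.32 CPM, with a log2 ratio between the hairpins of -1.30 (-1.57 to -1.06). Of the 49 genes, those in which hairpin 1 alone departed from the vector were ITGA9, IFI6, OLFML2A, EBF4, FER1L4, S1PR5 and UBE2L6. All of these 7 were higher than the vector with hairpin 1, and all but IFI6 had a level under 10 CPM in every library.

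Several abundant nuclear proteins were also among the 49, and their counts leave little room for counting error. NCL, nucleolin, a major nucleolar protein of ribosome assembly, had 82566 counts with hairpin 1, 38653 with hairpin 2 and 105675 with the vector. In CPM these were 2247, 1022 and 2024, and the log2 ratio between the hairpins was -1.12 (-1.14 to -1.11). ANP32B, an acidic histone chaperone, was at 397, 144 and 335 CPM, a log2 ratio of -1.45 (-1.50 to -1.41). SUB1, a coactivator of RNA polymerase II, was at 306, 128 and 266 CPM (-1.24, -1.29 to -1.19), and HTATSF1, a splicing and elongation factor, at 256, 111 and 285 CPM (-1.20, -1.25 to -1.15). In each of these the hairpin 2 library was the lowest and the other libraries lay close together.

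Genes whose interval lay past 1.5-fold were mostly lower with hairpin 2, 138 against 16 that were higher. Of the 10 most abundant of them, 9 were lower with hairpin 2, a share near that of the whole set. Beside NCL and ANP32B they were SET, an acidic inhibitor of protein phosphatase 2A and partner of ANP32 proteins, with 38579 and 20656 counts for hairpins 1 and 2, SUPT16H, a subunit of the histone chaperone FACT, with 22242 and 12566, and the chromatin proteins HMGB1 (31132 and 20410) and NUCKS1 (56925 and 37852). The remaining ones were the translation initiation factors EIF3A, EIF3E and EIF5B, with log2 ratios of -0.67, -0.68 and -0.66. The exception was TSC22D3, a glucocorticoid-induced leucine zipper protein, with 8256 counts for hairpin 1 and 13397 for hairpin 2, a log2 ratio of 0.67 (0.63 to 0.71). SETP14, a processed pseudogene of SET, was also 2-fold apart (565 and 274 counts), and reads of such near-identical copies may be shared with the parent gene, which leaves the values of both uncertain.

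NPTN, the cell adhesion protein neuroplastin, had 4058 counts with hairpin 1 and 1714 with hairpin 2, a log2 ratio of -1.27. PREPL, a serine hydrolase, had 6009 and 2555 (-1.26), and TMED8, a protein with a GOLD domain, 5277 and 2281 (-1.24). ERLIN2, an endoplasmic reticulum protein that helps degrade inositol trisphosphate receptors, had 3408 and 1331 (-1.38). COMMD8, a subunit of the COMMD complex of endosomal recycling, had 938 and 370 (-1.37), and TRMT10A, a tRNA guanosine methyltransferase, 856 and 358 (-1.28). Each had a hairpin 2 value at least 2-fold below the vector and a hairpin 1 value within 1.5-fold of it.

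KREMEN1, a co-receptor of the Wnt antagonist DKK1, had 40.4 CPM in the hairpin 1 library against 17.6 in that of hairpin 2, and TLE5, a corepressor of the Groucho family, at 75.6 and 33.5 CPM. The log2 ratios were -1.18 and -1.16. ANKRD1, an ankyrin-repeat protein induced by YAP signalling, departed from the vector with both hairpins. Its counts were 265 with the vector, 48 with hairpin 1 and 23 with hairpin 2, and the interval of the log2 ratio between the hairpins, -1.87 to -0.34, was wide enough to include values well within 2-fold.

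NEK7, a mitotic kinase that also takes part in the NLRP3 inflammasome, had 2934 counts with hairpin 1, 1359 with hairpin 2 and 4720 with the vector, a log2 ratio between the hairpins of -1.14 (-1.23 to -1.05). SCOC, a short coiled-coil protein of the Golgi and of autophagy, had 3932, 1800 and 5382 counts (-1.15, -1.24 to -1.07). MIGA1, an outer membrane protein that promotes mitochondrial fusion, had 2495, 1133 and 3460 (-1.17, -1.27 to -1.07). The log2 ratios of hairpin 1 to the vector were -0.17, 0.06 and 0.04, and those of hairpin 2 were -1.31, -1.09 and -1.12.

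Smaller genes of the same pattern were GSKIP, an anchoring protein that inhibits the kinase GSK3-beta, with 1201 counts for hairpin 1 and 566 for hairpin 2, and HOMEZ, a homeobox and leucine zipper protein, with 1199 and 579. TENT5C, a poly(A) polymerase, had 257 and 121, and MEGF10, a receptor for the engulfment of cells, 213 and 97. FCGRT, the neonatal Fc receptor, had 264 and 126. In TENT5C hairpin 1 lay at the level of the vector, at a log2 ratio of 0.00. LUM, lumican, a proteoglycan of the matrix that is also on the fibroblast marker list, had 292 and 135 counts.

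RASGEF1A, an exchange factor for Ras-family proteins, had 1100 counts with hairpin 1 and 490 with hairpin 2 (log2 ratio -1.19). CHST3, a chondroitin sulfotransferase, had 616 and 296, and IGDCC3, an immunoglobulin-domain membrane protein, 623 and 295. For CHST3 and IGDCC3 the vector lay between the hairpins, at 13.2 CPM against 16.8 and 7.82, and at 11.9 CPM against 17.0 and 7.80. MGLL, monoacylglycerol lipase, had 188 and 92 counts. Of the 49 genes, 8 overlap another kept gene (16.3%, against 25.3% of all), among them HABP4, HOMEZ, MGLL, MIGA1 and ARMH4, the last of which overlaps 3.

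The 4 genes at least 2-fold higher with hairpin 2 were TNC, PLXNA2, AP2A2 and MT-TQ. TNC, the matrix protein tenascin C, had 89 counts with hairpin 1, 202 with hairpin 2 and 458 with the vector, a log2 ratio of 1.14 (0.79 to 1.53). PLXNA2, a semaphorin receptor, had 113, 254 and 260 counts (1.13, 0.81 to 1.47), and AP2A2, a subunit of the endocytic clathrin adaptor AP-2, 237, 493 and 570 (1.02, 0.80 to 1.26). In these the larger departure from the vector was a lower value with hairpin 1, at log2 ratios of -1.83, -0.68 and -0.75. AP2A2 has further models on alternate scaffolds, with 234 and 227 counts and 188 and 224 counts for hairpins 1 and 2. Summed over its 3 models the counts were 659 and 944, a log2 ratio of 0.49 (0.35 to 0.64), so AP2A2 was then no longer 2-fold apart. Reads may be shared between such copies, and which value holds was not tested. MT-TQ, the mitochondrial tRNA for glutamine, had 177, 394 and 286 counts and a log2 ratio of 1.12 (0.87 to 1.39), and here hairpin 2 was the library above the vector. It lies on the opposite strand to neighbouring mitochondrial transcripts, and since the strand setting of the counting is not given, reads from both strands cannot be told apart.

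At the edge of the 2-fold limit, the last genes inside it in favour of hairpin 1 were TM9SF3, PPP2R1B and SYNM, a Golgi-located membrane protein, a scaffold subunit of protein phosphatase 2A and an intermediate filament protein, at log2 ratios of -1.024, -1.010 and -1.005. The first outside it were ST3GAL5, a ganglioside sialyltransferase, DOCK4, an activator of Rac, and EIF2S2P4, a pseudogene of a translation initiation factor, at -0.996, -0.995 and -0.993. In favour of hairpin 2 the first gene outside the limit was at 0.96.

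The lower genes were then read for short stretches of sequence in their transcripts. For 10197 protein-coding genes with a 3′ UTR (untranslated region after the stop codon) of at least 30 bases, each 7-base word found in the 3′ UTR of at least 100 genes was scored by the mean log2 ratio of the genes that hold it, less the mean of all, weighted by the square root of their number. Words were read on the transcript strand only, and neighbouring words overlap. Of 15523 words, AAGATGA stood lowest. Its 1772 genes had a mean log2 ratio of hairpin 2 to hairpin 1 that was 0.10 below the mean of all (-0.10). The word after it, AGATGAA, overlaps it by 6 bases and stood at -0.09. AAGATGA was also the lowest word of all for hairpin 2 over the vector (-0.11), a ratio that shares the hairpin 2 library with the first, so the rank there is no independent result, whereas for hairpin 1 over the vector its genes differed from the mean by -0.01.

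At the other end of the scale, GATCAAC stood highest of the 15523 words for hairpin 2 over hairpin 1. Its 385 genes had a mean 0.05 above the mean of all. In units of the SD of the ratio its score was 4.1, against -17.6 for AAGATGA and 2.9 for the next word, ATCAACT, which overlaps it. GCATTCG, in 159 genes, had a mean 0.06 above that of all. Whether unrelated words would give a highest score of this size was not tested. GATCAAC was also the lowest word of all for hairpin 1 over the vector, at -0.08, a ratio that shares the hairpin 1 library. For hairpin 2 over the vector GATCAAC stood at -0.03. The lowest word of hairpin 1 over the vector and that of hairpin 2 over the vector were thus different words. These are descriptions of 1 library a side, and the genes are not independent replicates.

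AAGATGA occurred in the 3′ UTR of 30 of the 47 protein-coding genes that were at least 2-fold higher with hairpin 1 (63.8%), in 103 of 255 between 1.5-fold and 2-fold (40.4%), in 16.6% of the 9848 genes within 1.5-fold and in 4 of 47 at least 1.5-fold higher with hairpin 2 (8.51%). Over all 10197 genes the share was 17.4%. The word was picked by the ratio that also defines these sets, so the shares describe the choice and are no separate support for it. A match is a description of the transcript and not a shown site of binding. The sites below are from genes with large ratios at different levels of expression, with the 7-base word in capitals, read 5′ to 3′ on the transcript strand from GENCODE release 29 on GRCh38.

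ELK3 3′ UTR, chr12:96267618-96267647, plus strand: ggaaatgtttgaAAGATGAaaattagtatc
HABP4 3′ UTR, chr9:96490220-96490249, plus strand: ccatttcccaagAAGATGAagaatggtgac
ITGA9 3′ UTR, chr3:37819183-37819212, plus strand: ccacttcctttaAAGATGAactctgaactt
SLC29A4 3′ UTR, chr7:5304027-5304056, plus strand: accggccattaaAAGATGAaggcagaccgc
COMMD8 3′ UTR, chr4:47451425-47451454, minus strand: tgcataaaatgaAAGATGAaaaatctatag
SUB1 3′ UTR, chr5:32601195-32601224, plus strand: agaagaatttgtAAGATGAatacttttttt
TRMT10A 3′ UTR, chr4:99548249-99548278, minus strand: ttgttggctcttAAGATGAataaagtttat
KREMEN1 3′ UTR, chr22:29146657-29146686, plus strand: attttaaaatatAAGATGAagtgtgacgca
SCOC 3′ UTR, chr4:140381340-140381369, plus strand: ttatgaaacttaAAGATGAatgttttattg
NPTN 3′ UTR, chr15:73560484-73560513, minus strand: ttctggtacataAAGATGAgtaatataaac

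In all of the sites shown but that of NPTN, where G follows, the word is followed by a further A. The sites shown are a selection. Of the protein-coding genes at least 2-fold higher with hairpin 1, 24 held AAGATGAA in the 3′ UTR and 6 held AAGATGA without that A. Of all 1772 genes with AAGATGA in the 3′ UTR, 752 held AAGATGAA. Genes with the further A had lower ratios across the transcriptome. The 752 genes with AAGATGAA in the 3′ UTR had a median log2 ratio of hairpin 2 to hairpin 1 of -0.13, and 11.2% of them were at least 1.5-fold higher with hairpin 1. For 1020 genes with AAGATGA but no such A the median was -0.04 and the share 4.8%. For 812 genes with AGATGAA only they were -0.03 and 3.08%, for 1384 genes with AGATGA only 0.00 and 2.38%, and for 6229 genes with none of these 0.02 and 1.78%. The order of the medians followed the length of the match. AAGATGA and AGATGAA were the lowest words by this ratio over these same genes, so the order of classes built from them is no separate support. Against the vector the medians over these 5 classes ran from -0.13 to 0.03 with hairpin 2, in the same order, and from 0.00 to 0.01 with hairpin 1.

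**Figure D3:**
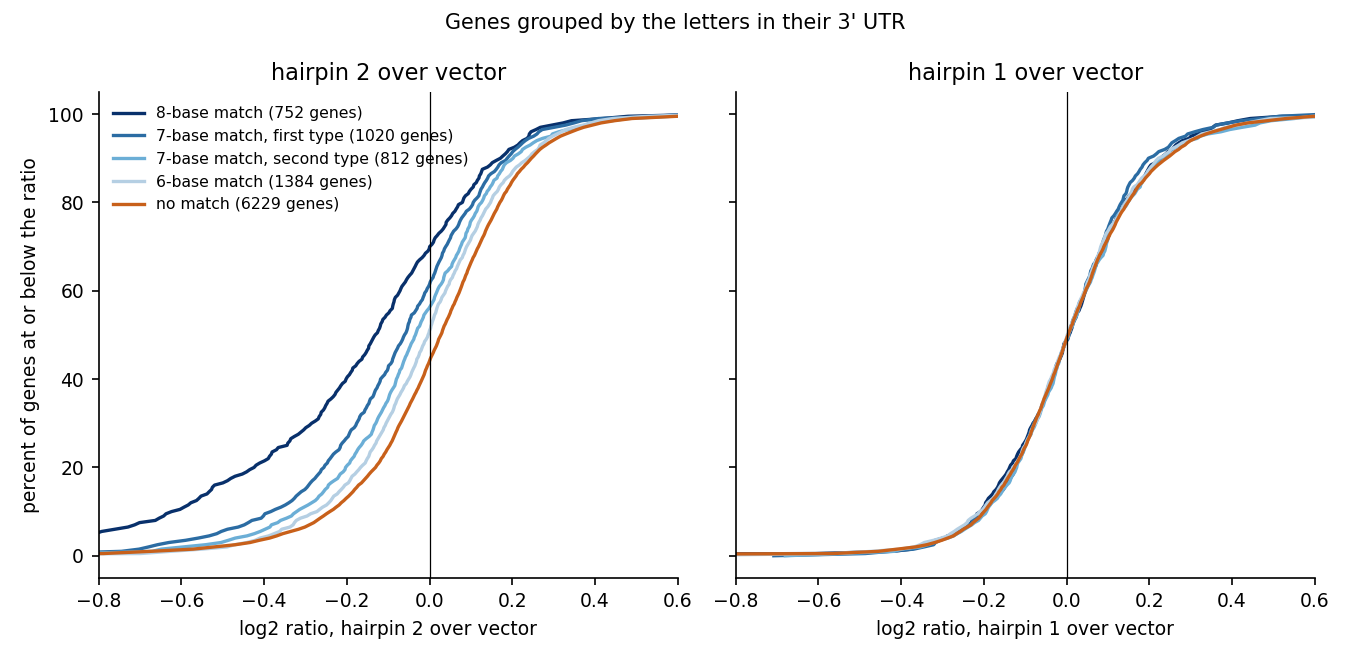
Cumulative percent of genes (vertical axis) by log2 ratio to the vector (horizontal axis), for hairpin 2 (left) and hairpin 1 (right), in 5 classes of 3′ UTR: AAGATGAA (8-base match), AAGATGA (7-base match, first type), AGATGAA (second type), AGATGA (6-base match) and none. The curves separate in the order of the match on the left, with medians from -0.13 to 0.03, and lie on each other on the right. The classes are built from a word picked by the ratio of hairpin 2 to hairpin 1 over these same genes.

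Genes with the word have longer 3′ UTRs, with a median of 3146 bases for AAGATGAA against 751 bases for genes with none of the words. The medians are therefore also given within bins, and the part of 3′ UTR length in the ratios was not tested. Among 3′ UTRs of 30 to 500 bases the median log2 ratio was -0.16 for 78 genes with AAGATGA and 0.01 for 2388 without. In the bin of the longest 3′ UTRs it was -0.06 for 614 genes and -0.02 for 666. The genes with the word were the lower ones in each of the 5 bins of length, the 4 bins of level and the 5 bins of GC content. More copies went with lower ratios, from a median of 0.01 for genes with 0 copies in the 3′ UTR to -0.07 for 1 copy and -0.13 for 2 or more. The word was picked by this ratio over these same genes, so the bins and copies are no separate support for it.

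**Figure D4:**
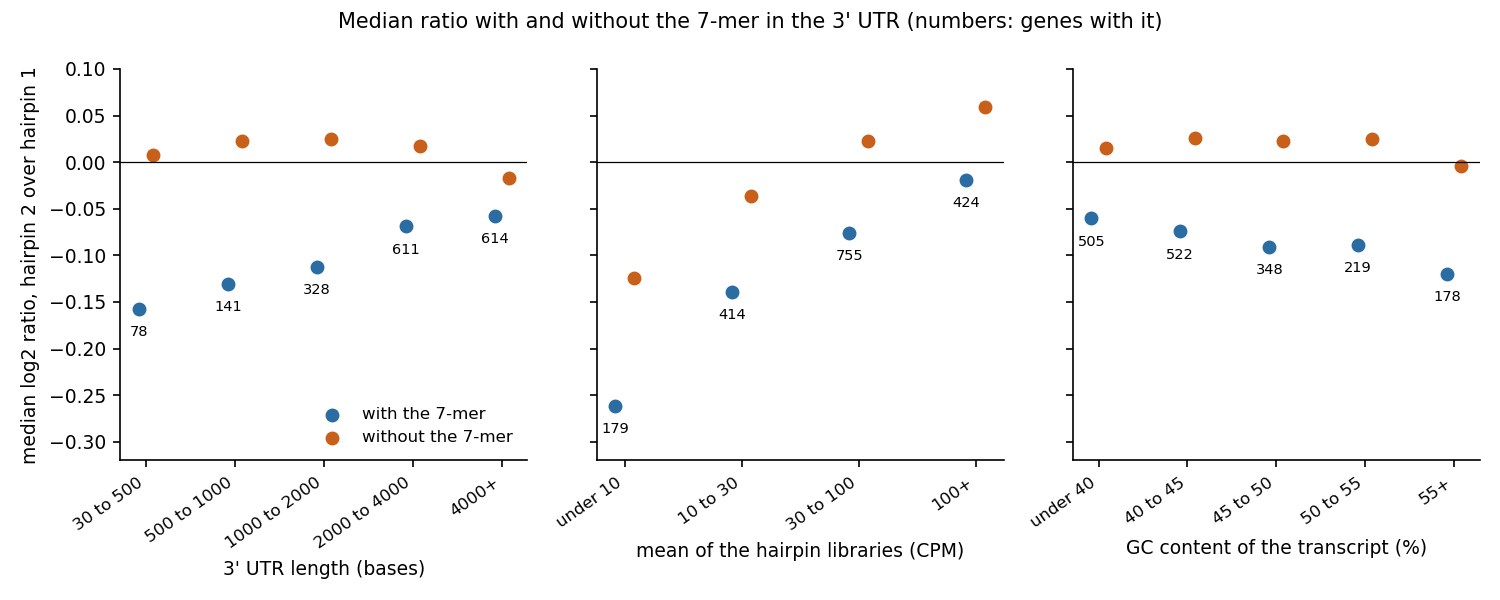
Median log2 ratio of hairpin 2 to hairpin 1 (vertical axis) for genes with (blue) and without (orange) AAGATGA in the 3′ UTR, in bins of 3′ UTR length, level and GC content. Blue lies below orange in all 14 bins, and both rise with the level.

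Copies in the coding sequence went with the ratios of both hairpins to the vector. AAGATGA can form part of the codons of acidic stretches such as Glu-Asp-Glu, and it was found in the coding sequence of 33.5% of the 10197 genes. Among genes with none in the 3′ UTR, the median log2 ratio of hairpin 2 to hairpin 1 went from 0.02 for 5639 genes with 0 coding copies to -0.06 for 185 genes with 4 or more. Here the ratios to the vector were lower with more copies for both hairpins, from 0.02 to -0.07 with hairpin 1 and from 0.04 to -0.14 with hairpin 2. Of the 47 protein-coding genes at least 2-fold higher with hairpin 1, 19 held a coding copy (40.4%, against 33.5% of all). Only 5 held it in the coding sequence and not in the 3′ UTR (10.6%, against 27.3% of all). Among the abundant genes named above, SUB1 and EIF3E held 0 coding copies and several others held many. NCL held 10 copies in its coding sequence and 0 in its 3′ UTR, ANP32B 6 and 0, HTATSF1 6 and 0, EIF5B 9 and 0, and SET 6 and 2. The highest number in a 3′ UTR among the 49 genes was that of TMED8, with 5 copies, and PREPL and MEGF10 followed with 3 each. A coding site is shown for NCL, which holds the most copies of these, and for ANP32B. Each stretch also holds a further copy in lower case, which follows the marked one in NCL and overlaps it in ANP32B.

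NCL coding sequence, chr2:231463214-231463243, minus strand: aggaaatgtcagAAGATGAagaagatgata
ANP32B coding sequence, chr9:98012434-98012463, plus strand: gacttgatgaagAAGATGAagatgaggatg

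Of the 47 protein-coding genes at least 2-fold higher with hairpin 1, 35 held AAGATGA in the 3′ UTR or the coding sequence (74.5%, against 44.7% of all). These 35 departed from the vector with hairpin 2 only in 33 cases, with hairpin 1 only in 1 (ITGA9) and with both in 1 (ANKRD1). The remaining 12 were RASSF2, USH1C, IFI6, RASGEF1A, RELL1, OLFML2A, EBF4, FCGRT, S1PR5, NEURL1B, IFI44L and UBE2L6. They departed with hairpin 2 only in 6 cases, with hairpin 1 only in 5 and with neither in 1. Their median level was 5.61 CPM against 24.0 CPM for the 35, and 11 of the 12 had a mean under 10 CPM. Median log2 ratios of hairpin 1 to the vector were 0.44 for the 12 and 0.11 for the 35. The word and the 47 genes were both picked by the ratio of hairpin 2 to hairpin 1, so this division is no separate support for the word. The part of the level in it was not tested.

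Both words also occurred in DDX24. The transcript of DDX24 used here (coding length 2580 bases) holds AAGATGA once and GATCAAC once, both in the coding sequence, at positions 2123 and 2088 counted from the start codon. Of all 10197 coding sequences, 33.5% hold the first word and 10.9% the second.

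DDX24 coding sequence, chr14:94055069-94055098, minus strand: gcctgaggatgtGATCAACtttaagaagat
DDX24 coding sequence, chr14:94055034-94055063, minus strand: aaacgctcaagaAAGATGAggatatcccac

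The sequences of the hairpins are not in the sources used here. Whether either word is complementary to the seed of a guide strand was therefore not tested. Of 2545 mature human microRNAs in the RefSeq table, 0 had the complementary seed UCAUCUU and 0 had GUUGAUC at bases 2 to 8. There are 16384 possible 7-base words, far more than microRNAs, so most words match none and a count of 0 is the usual outcome.

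For hairpin 1 the word GATCAAC gave a smaller contrast than AAGATGA did for hairpin 2. The 385 genes that hold it in the 3′ UTR had a median log2 ratio to the vector of -0.06 with hairpin 1 and -0.02 with hairpin 2, against 0.01 and 0.00 for the 9812 without. Among the 50 genes at least 1.5-fold higher with hairpin 2, 47 were protein-coding with a 3′ UTR. The word was in the 3′ UTR of 4 of these 47 (8.51%, against 3.78% of all), but also of 3 of the 47 genes at least 2-fold higher with hairpin 1 (6.38%), and it was in the coding sequence of 8 (17.0%, against 10.9%). Within bins, genes with the word had a median ratio of hairpin 2 to hairpin 1 that was 0.28 above that of genes without it for the shortest 3′ UTRs, on 8 genes, and 0.16 above it under 10 CPM. At 30 to 100 CPM, with 159 genes, the medians differed by 0.00, and in the bin of highest GC content by -0.003. AP2A2, TSC22D3, JAG1 and CDH2 held it in the coding sequence, and COX20, an assembly factor of cytochrome c oxidase, in the 3′ UTR. The sites shown belong to TSC22D3, the most abundant of these, and to COX20.

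TSC22D3 coding sequence, chrX:107775151-107775180, minus strand: cccctgctacctGATCAACgagggcatctg
COX20 3′ UTR, chr1:244843203-244843232, plus strand: aaacgaagttaaGATCAACcacataaaaca

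Of 38 gene lists of pathways and families, 6 had a median log2 ratio of -0.1 or lower and 7 of 0.1 or higher, beside a median of 0.00 over all genes kept, of which 50.1% were below 0. In bulk RNA, a change in the share of cells in a state and a change of RNA per cell cannot be told apart. The lists overlap in members. They were also not matched for level, and the median ratio of all genes ran from -0.12 under 10 CPM to 0.07 at 300 CPM or more. The part of the level in the list medians was not tested. Of all genes kept 3.45% were at least 1.5-fold apart, so the absence of such genes from a short list is no result about its members. The extreme medians were those of lists with 1 or 2 members kept, mitochondrial tRNAs (1.12, MT-TQ) and noncoding RNAs made by polymerase III (-0.45).

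Energy metabolism and mitochondrial transcripts lay on opposite sides. Of 15 mRNAs and rRNAs of the mitochondrial genome, 13 were lower with hairpin 2 (median -0.15). Against the vector they were higher with both, at medians of 0.30 with hairpin 1 and 0.15 with hairpin 2. MT-CO1, a subunit of cytochrome c oxidase, had 357263 counts with hairpin 1 and 314329 with hairpin 2, a log2 ratio of -0.21. MT-ND6, the mRNA of the light strand, went the other way with 6104 and 8939 counts (0.52). Of 14 glycolytic enzymes, 13 were higher with hairpin 2 (median 0.14), among them GAPDH at 0.27 and TPI1 at 0.23. None was 1.5-fold apart, beside 3.45% of all genes kept. Hypoxia targets were higher in 17 of 23 (median 0.13), but the largest ratio among them was that of SLC2A3, the neuronal-type glucose transporter GLUT3, at -0.88 with 756 and 417 counts.

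**Figure D5:**
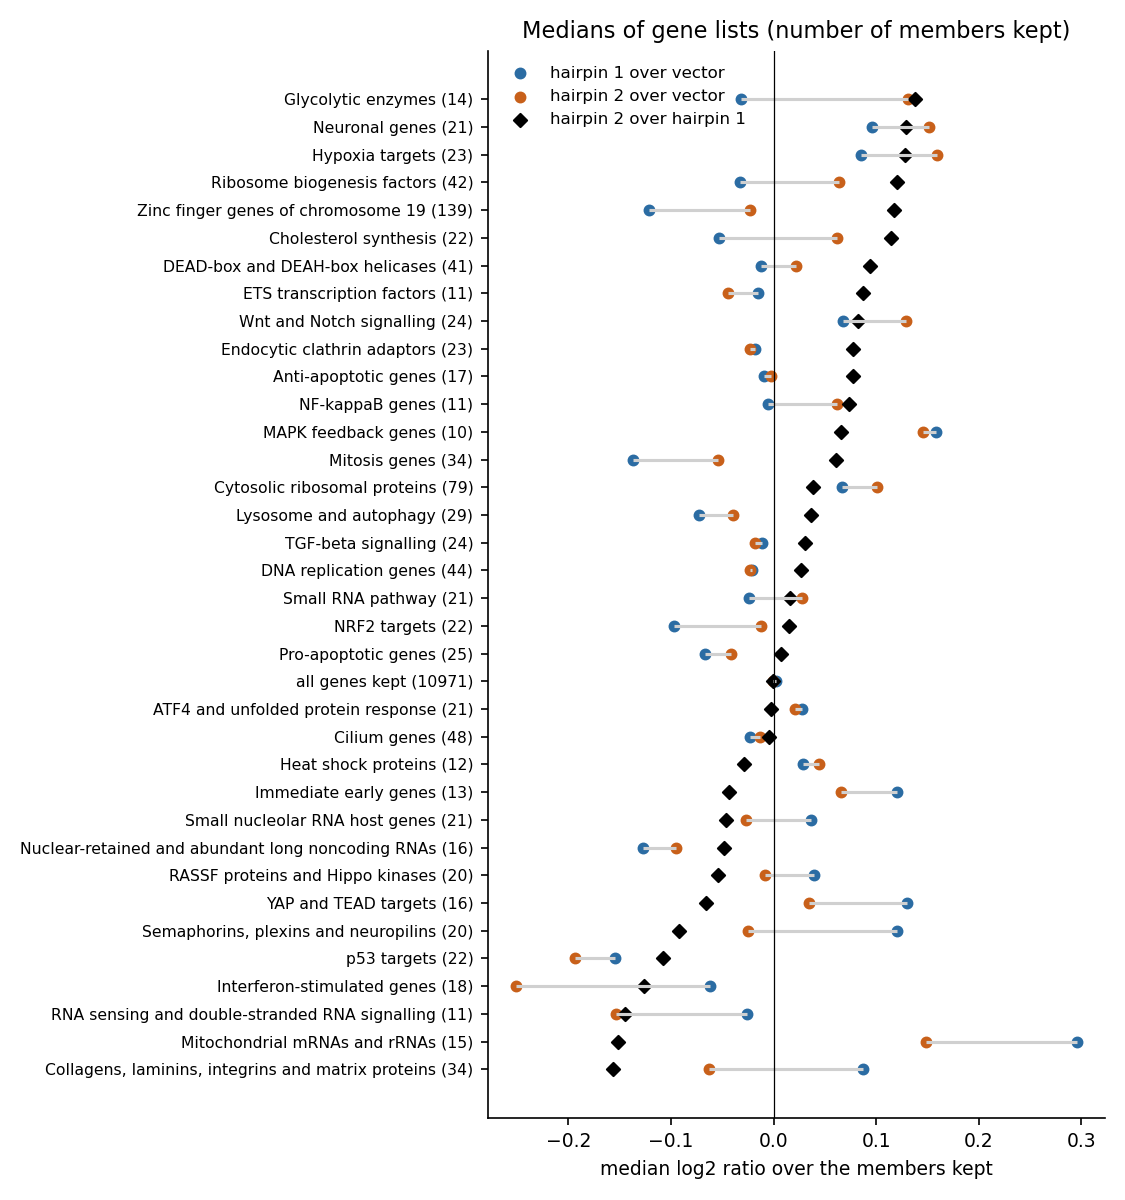
Median log2 ratio (horizontal axis) over the members kept of each list with at least 10 members kept and of all genes, for hairpin 2 over hairpin 1 (black), hairpin 1 over the vector (blue) and hairpin 2 over the vector (orange). All black medians lie between -0.16 and 0.14.

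Lists of nucleolar, zinc finger, sterol and helicase genes had slightly positive medians. Of 42 ribosome biogenesis factors 33 were above 0 (median 0.12), with RRS1 at 0.37 and NOLC1 at 0.31, and NCL was the member that went farthest the other way. Of 139 zinc finger genes of chromosome 19, 94 were higher with hairpin 2 (median 0.12). Their medians against the vector were -0.12 with hairpin 1 and -0.02 with hairpin 2. ZNF155 and ZNF227, the largest of these, had 124 and 433 counts with hairpin 1 and 227 and 696 with hairpin 2. Cholesterol synthesis genes were higher in 15 of 22 (median 0.11), with INSIG1, the feedback inhibitor of the pathway, opposite at -0.60. Of 41 DEAD-box and DEAH-box helicases, 28 were above 0 (median 0.09), with DDX49 at 0.40 and DHX15 at -0.39 as the extremes. Of these helicases 0 were 1.5-fold apart, beside 3.45% of all genes kept.

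Lists of matrix, interferon and p53 genes had slightly negative medians, beside a median of -0.12 for all genes under 10 CPM. Of 34 matrix, collagen, laminin and integrin genes, 24 were lower (median -0.16), with HSPG2, perlecan, at 1398 and 883 counts (-0.69) and COL6A2 at 1637 and 1148 (-0.54), and TNC as the member at the other end. Of 18 interferon-stimulated genes 12 were lower (median -0.13). Beside IFI6, IFI44L had 334 counts with hairpin 1 and 164 with hairpin 2 (-1.05), and IFIT1, an inhibitor of the translation of foreign RNA, 410 and 233 (-0.84). Against the vector the interferon list had medians of -0.06 with hairpin 1 and -0.25 with hairpin 2. Of 22 p53 targets 16 were lower (median -0.11), and 0 were 1.5-fold apart, beside 3.45% of all genes kept.

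Single members stood out in lists whose median was within 0.1 of 0, and in the neuronal list. BIRC5, survivin, an inhibitor of apoptosis and mitotic protein, had 6059 counts with hairpin 1 and 9124 with hairpin 2 (0.56), and hairpin 2 lay at the level of the vector (log2 ratio 0.00). NUF2, a kinetochore protein, had 2060 and 1131 counts (-0.89). RPL22L1, a paralog of ribosomal protein L22, had 1897 and 982 counts (-0.98). No other of the 79 cytosolic ribosomal protein genes kept was past 1.5-fold, beside 3.45% of all genes kept. Among proteins of the small RNA pathway, TNRC6A and TNRC6C, the GW182 partners of Argonaute, were higher with hairpin 2 (0.47 and 0.44), and AGO4 and the decapping factor DCP1A were lower (-0.43 and -0.59). Of these only DCP1A was past 1.5-fold. The neuronal list, with 11 of 21 members above 0, held differences in both directions: STMN2, a microtubule regulator of growing axons, had 122 and 221 counts for hairpins 1 and 2 (0.82), INA, a neurofilament protein, 2136 and 3393 (0.64), and MAP1B, a microtubule-associated protein, 3294 and 1962 (-0.78). Its median of 0.13 turned negative when the filter was set at 1 or 10 CPM.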

How the data were processed

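RNA-seq was done on 3 libraries of HEK293T cells, 1 per condition. The deposited table holds raw read counts per gene model made by the authors, not normalized. STAR 2.7.3a, DESeq2 1.26 and GRCh38 were used, per the submitters' processing notes. How reads were assigned to genes, with or without strand and from which annotation release, is not given in the sources used here. Hence overlapping genes, opposite strands and near-identical copies can share reads. All 3 count columns were used and 0 were left out.

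CPM values were computed on library totals. Genes on chromosomes with at least 5 CPM in at least 1 library were kept, and counts were scaled by TMM (edgeR 4.0.16, R 4.3.3, Python 3.11.15). Log2 ratios used a prior count of 2. Their 95% exact Clopper-Pearson intervals cover counting error only, and PCR reads are not independent molecules. A count of 3 was taken as the floor, between 0.0575 and 0.0817 CPM over the libraries. With 1 library a side there was no test, SE or p-value, and the design, which would need replicates, allows none. The ratio calculation was tested on simulated data.

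The genes named were all past 2-fold in favour of hairpin 2, the 25 with the largest ratios in favour of hairpin 1, 3 on each side of that limit, the 10 most abundant whose interval lay past 1.5-fold and up to 4 per gene list. Further genes were named after their values were seen. Members and lists were chosen with earlier results of these data known. Sequence words came from the sense strand of 1 principal coding transcript per gene of GENCODE release 29, which matched 10961 of 10971 genes. This scan was chosen after seeing the data. Alternatives were other scaling (DESeq2 1.42.0 size factors, library totals), prior counts, filters and fold limits, and for the words other transcripts, scaling and corrections.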

Additional observations from a re-analysis of the deposited data

Results flagged for a closer look

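Of the 53 genes at least 2-fold apart, 15 had the hairpins on opposite sides of the vector. Each hairpin was at least 0.32 from it on the log2 scale, with an interval that does not hold 0. Genes less than 2-fold apart were not searched for this, and 49 of the 53 were higher with hairpin 1 by the choice of set. The difference was not tested, since each side had 1 library, and both ratios share the vector library. In 14 of the 15 genes hairpin 1 was above the vector and hairpin 2 below it. The log2 ratios of hairpin 2 to hairpin 1 were -1.88 for RASSF2, -1.86 for ELK3, -1.57 for USH1C, -1.54 for ITGA9, -1.30 for IFI6, -1.19 for RELL1, -1.17 for OLFML2A and -1.10 for both IGDCC3 and EBF4. They were -1.08 for FER1L4 and CHST3, -1.07 for S1PR5 and NEURL1B, and -1.04 for UBE2L6. PLXNA2 was the only gene of the 15 with hairpin 1 below and hairpin 2 above the vector, at 1.13.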

How the results depend on the processing

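The number of genes at least 2-fold higher with hairpin 1, 49, was 127 with a filter of 1 CPM and 1775 with no filter. It was 328 at 1.5-fold, 26 where the whole interval had to lie past 2-fold and 138 where it had to lie past 1.5-fold. The number higher with hairpin 2, 4, was 32, 1250, 50, 0 and 16 under the same settings and 2 with a filter of 10 CPM. It was 3 with counts summed over models of the same symbol, an alternative added after seeing the data, where AP2A2 went from 1.02 to 0.49. Without a filter most such genes have few counts. Genes that departed from the vector with hairpin 2 only numbered 26 instead of 40 when departure meant 2-fold, and those with hairpin 1 only 1 instead of 7 (0 with a limit of 0.32 on the log2 scale). The median of the neuronal list, 0.13, reversed to -0.056 with a filter of 1 CPM and to -0.068 with 10 CPM. The causes of these changes were not tested. Of 342 list medians under alternatives, 339 moved by less than their limit, with direction checked only where the main median was at least 0.1 from 0. All 262 ratios of single genes under the other alternatives stayed within their counting interval. The word AAGATGA stayed the lowest, at means of -0.09 to -0.11, and GATCAAC the highest, at 0.04 to 0.06, under all 8 alternatives, which were chosen after seeing the data. Among these, library totals and size factors shift the ratios of all genes nearly alike. Words are scored against the mean of all genes, so these scalings could hardly change a rank and are no check of it. No paired analysis was possible because each condition had 1 library, and no replicate could be left out for the same reason. Depth limits the low genes: ANKRD1 rests on 48 and 23 counts.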
